A study of Mus musculus with 3 samples.

Results

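The genes described here are regulators of keratinocyte fate and components of the Notch pathway, measured in skin papillomas from 3 mouse genotypes. They were chosen as a list of 49 symbols covering epidermal transcription factors, chromatin regulators of epidermis and the Notch pathway. Of these, 48 genes were matched to an Entrez identifier of the count table by their RefSeq symbol, out of 24028 identifiers in all. Znf750 and Zfp750 are names of the same mouse gene, which is given as Zfp750.

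Papillomas are benign tumours of the epidermis, and all the tumours came from C57BL/6 mice treated with the carcinogen DMBA and the tumour promoter TPA. The Tg46 mice carried a transgene that drives galectin-7, a lectin of stratified epithelia, from the keratin 14 promoter, which is active in basal keratinocytes. The Lgals7-/- mice lacked galectin-7, and the wild-type mice had their own galectin-7 only. RNA of 3 tumours was pooled for each genotype and made into 1 library, so the differences described here have no replicate check, and variation between tumours cannot be seen.

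In stratified epidermis, basal progenitors divide on the basement membrane and their daughters differentiate as they move outward. The transcription factor p63 holds basal identity. KLF4, the Grainyhead-like (GRHL) factors, OVOL1, ZNF750, PRDM1 and the ETS factors EHF and ELF3 act in differentiation and barrier formation. Notch receptors are cut after a ligand on a neighbouring cell binds them, and their intracellular part joins RBPJ and Mastermind-like proteins in the nucleus to switch on HES and HEY genes. In mouse epidermis Notch signalling promotes the step out of the basal layer, and Notch1 acts as a tumour suppressor in mouse skin.

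The libraries were shallow. Total counts were 354499 in Tg46, 312600 in Lgals7-/- and 172011 in wild-type, and 3 counts, the floor that a count of 0 allows, were worth 8.95, 9.11 and 17.4 CPM (counts scaled to library size with TMM factors). Lgals7 itself held 4, 2 and 0 counts in Tg46, Lgals7-/- and wild-type, too few to check the genotype labels. All 10 keratinocyte markers were detected in each library, and together they stood at 2647 CPM in Tg46, 2041 CPM in Lgals7-/- and 1007 CPM in wild-type. Summed markers of fibroblasts lay between 405 and 492 CPM, of immune cells between 376 and 465 CPM and of mural cells between 289 and 444 CPM. The neutrophil gene S100a8 was at 0 in Tg46 and in wild-type, as were Cd4, Lum, Rgs5 and Cnn1 in wild-type. Melanocyte markers summed to 1963 CPM in Tg46, 905 CPM in Lgals7-/- and 1291 CPM in wild-type, most of it from Pmel. In pooled tissue, fewer cells of a type and less RNA per cell cannot be told apart. Exons of another gene on the opposite strand were annotated across 83, 78 and 80 of the 100 most counted genes in Tg46, Lgals7-/- and wild-type, and across 24.4% of all annotated genes. How strand was treated in counting is not stated in the sources used here, so reads at an overlapped gene may belong to either partner. If reads were counted on the opposite strand, counts at a gene with no annotated overlap may not come from its own transcript. This was not tested. Such an overlap was annotated for 17 of the 48 genes, and it is named below for each called gene that has one.

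A pair of libraries was compared by the ratio of scaled counts, with 0.5 counts added to each, and by the exact Clopper-Pearson 95% interval of that ratio. Calls, higher or lower, required a difference of 2-fold or more and an interval that did not include 1. Intervals cover counting error only, because each genotype has 1 library, and a call compares 2 libraries rather than 2 genotypes. Reads that carry no molecular identifier may be copies of 1 molecule, so the intervals may be too narrow even for counting error. Of the 48 genes, 37 reached 10 counts in at least 1 library and entered the comparisons. A gene could pass through the library in which it was high, which favours a call.

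Tg46 held more Klf4, Tfap2a, Grhl2 and Elf3 than wild-type and less Ehf, Notch4 and Mib1. Calls were made for 4 of the 37 genes as higher and 3 as lower, 30 had no call, and the median log2 ratio was 0.34. Among all 12940 genes compared, 13.7% were called higher and 13.9% lower, with a median of 0.11, so that the shares of 10.8% and 8.11% among the 37 were not above those of the transcriptome. In Lgals7-/- relative to wild-type, 3 of the 37 (Barx2, Notch1 and Dll1) were called higher, 1 (Ehf) lower and 33 neither, against 13.3% higher and 13.7% lower of all genes. The median log2 ratio was -0.06, against 0.10 over all genes. In Tg46 relative to Lgals7-/-, 4 of the 37 (Klf4, Grhl3, Ovol2 and Gli1) were called higher and 0 lower, against 8.43% higher and 7.73% lower of all genes, and the medians were 0.17 for the 37 and -0.03 for all genes. Setting undetected genes to the floor of 3 counts left these medians as they were. The sign of the median in Lgals7-/- over wild-type turned under other scalings, and that in Tg46 over wild-type turned with 5 counts added or with libraries thinned to the smallest total. Among the 13 called genes, Klf4 and Ehf kept all their calls under these settings, and each of the other 11 lost a call under at least 1 of them. Of the 37 genes, 24 were called in no comparison, and their log2 ratios lay between -1.26 and 1.68 in Tg46 over wild-type, between -1.42 and 1.503 in Lgals7-/- over wild-type and between -0.80 and 1.37 in Tg46 over Lgals7-/-. By fold alone, without the interval, 9, 5 and 7 of the 37 were higher in Tg46 over wild-type, Lgals7-/- over wild-type and Tg46 over Lgals7-/-, against 25.6%, 25.3% and 14% of all genes, and 5 were lower in Lgals7-/- over wild-type, against 18.6%. Both comparisons with wild-type share the wild-type library.

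**Figure D1:**
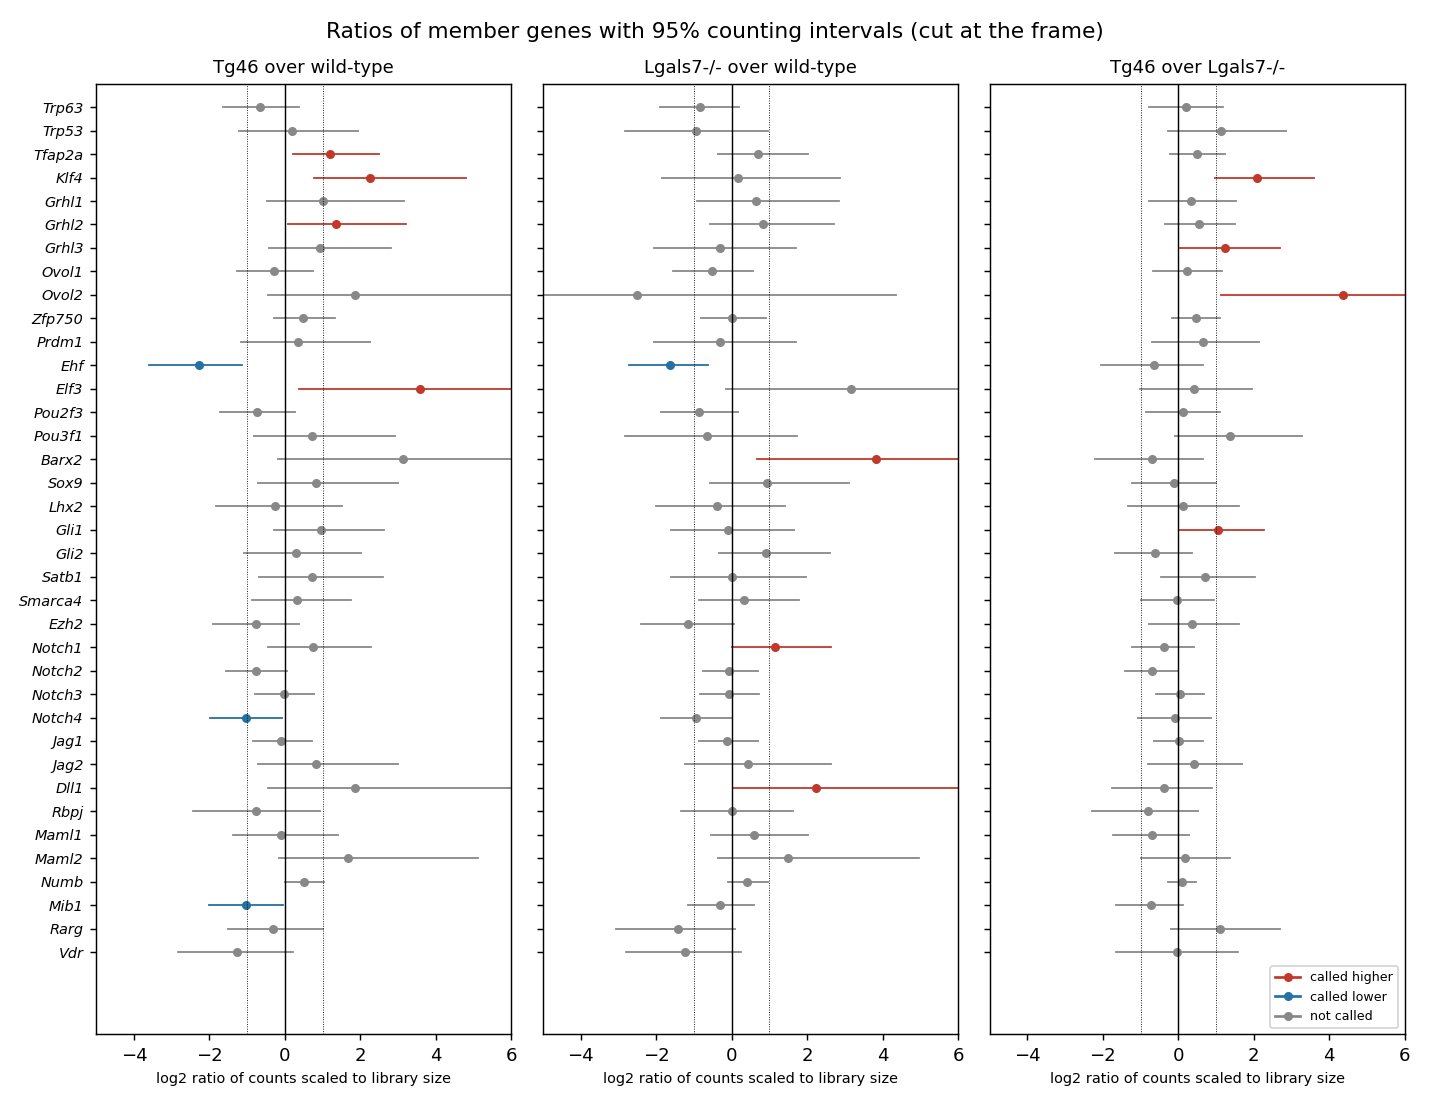
Log2 ratios of the 37 genes past the count filter in Tg46 over wild-type, Lgals7-/- over wild-type and Tg46 over Lgals7-/-. Points are ratios of scaled counts with 0.5 counts added, horizontal lines their 95% counting intervals (cut at the frame), dotted lines a 2-fold difference, red genes called higher and blue genes called lower. Points of genes at 0 counts in a library depend on the added 0.5 counts. Most intervals cross 0, and the 13 genes called in at least 1 comparison stand out in colour.

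Klf4, a zinc finger factor required for the epidermal barrier in mice, was called in Tg46 against each of the other libraries. It held 32 counts in Tg46, against 7 in Lgals7-/- and 3 in wild-type, which are 95.5, 21.3 and 17.4 CPM. The Tg46 library stood above both others, and the Lgals7-/- and wild-type libraries could not be told apart at these low counts. The ratio was 4.79-fold (1.72 to 28.1) in Tg46 over wild-type, 4.26-fold (1.95 to 12.1) in Tg46 over Lgals7-/- and 1.12-fold (0.280 to 7.34) in Lgals7-/- over wild-type. Klf4 (Entrez 16600) lies on chromosome 4 from 55527143 to 55532466 on the minus strand (mm10), with no annotated exon across it.

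The GRHL factors, which regulate epithelial junction and barrier genes, also had their highest level in Tg46. Grhl1 held 17, 13 and 4 counts, Grhl2 27, 18 and 5 and Grhl3 20, 8 and 5 in Tg46, Lgals7-/- and wild-type. Scaled to CPM, these are 50.7, 39.5 and 23.2 for Grhl1, 80.6, 54.7 and 28.9 for Grhl2 and 59.7, 24.3 and 28.9 for Grhl3. Grhl2, with an exon across it from Gm16136, was 2.58-fold higher in Tg46 than in wild-type (1.06 to 9.26). Grhl3 was called higher in Tg46 than in Lgals7-/-, at 2.37-fold (1.04 to 6.45), and its ratio to wild-type was 1.92 (0.751 to 7.03). Grhl1 was not called, with an interval of Tg46 over wild-type of 0.715 to 8.95.

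OVOL1 and OVOL2 are zinc finger factors that hold back epithelial-mesenchymal change. Ovol2 held 10 counts in Tg46, 0 in Lgals7-/- and 1 in wild-type. With the 0 in Lgals7-/- set to the floor of 3 counts, it was 3.27-fold higher in Tg46, with a 95% interval from 2.20 upward. Such a ratio at the floor is not a lower limit, which the interval gives. The ratio of Tg46 to wild-type was 3.61 (0.733 to 224). An exon of 1700108N11Rik lies across Ovol2. Ovol1 held 24, 20 and 15 counts in Tg46, Lgals7-/- and wild-type and was not called, with ratios to wild-type of 0.815 in Tg46 and 0.694 in Lgals7-/-.

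The ETS factors of epithelia differed in direction. Ehf held 9 counts in Tg46, 14 in Lgals7-/- and 23 in wild-type, which are 26.9, 42.5 and 133 CPM. The wild-type library, the shallowest of the 3, had the most counts in absolute number. Ehf was 4.80-fold lower in Tg46 than in wild-type (2.21 to 12.2) and 3.09-fold lower in Lgals7-/- than in wild-type (1.54 to 6.58), the one gene of the 37 called in both comparisons with wild-type. Both calls rest on the same wild-type library. Between Tg46 and Lgals7-/- it was not called (interval 0.241 to 1.57), and no exon lies across it (Entrez 13661, chromosome 2, 103263433 to 103303278, minus strand). Elf3, a factor of epithelial differentiation, held 11, 8 and 0 counts in Tg46, Lgals7-/- and wild-type, with an exon of Gm26642 across it. At the floor of 3 counts for wild-type, it was 1.89-fold higher in Tg46, with an interval from 1.29 upward. In Lgals7-/- it was 1.40-fold higher at this floor, with an interval from 0.896 upward, and was not called.

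The RefSeq promoter windows of Klf4, Grhl3, Ovol2 and Elf3 (GRCm38.p6, reaching from upstream of the annotated start into the transcript) are shown because these genes were called higher in Tg46 and have a single window in the table, with at least 1 of the motifs searched. The motifs searched on both strands were GGGCGG, the GC box bound by SP and KLF factors, TGGGAA, the core of the RBPJ site, and TGANTCA, the AP-1 site. Capitals mark GGGCGG or its reverse complement in Klf4, and TGGGAA or its reverse complement in the other 3. No base of these windows belonged to more than 1 of the motifs.
Klf4, chr4:55532426-55532725, minus strand: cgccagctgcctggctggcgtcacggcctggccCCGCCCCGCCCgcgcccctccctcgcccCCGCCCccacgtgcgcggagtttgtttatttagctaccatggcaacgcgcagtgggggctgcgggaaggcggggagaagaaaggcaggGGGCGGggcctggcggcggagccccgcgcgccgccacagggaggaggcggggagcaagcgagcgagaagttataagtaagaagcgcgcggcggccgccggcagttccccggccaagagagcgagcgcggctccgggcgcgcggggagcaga
Grhl3, chr4:135573583-135573882, minus strand: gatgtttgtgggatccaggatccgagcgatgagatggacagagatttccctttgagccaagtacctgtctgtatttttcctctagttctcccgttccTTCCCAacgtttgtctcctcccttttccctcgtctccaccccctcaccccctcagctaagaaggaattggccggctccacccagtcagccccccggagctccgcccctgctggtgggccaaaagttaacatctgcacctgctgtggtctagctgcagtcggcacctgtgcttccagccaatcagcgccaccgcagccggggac
Ovol2, chr2:144331313-144331612, minus strand: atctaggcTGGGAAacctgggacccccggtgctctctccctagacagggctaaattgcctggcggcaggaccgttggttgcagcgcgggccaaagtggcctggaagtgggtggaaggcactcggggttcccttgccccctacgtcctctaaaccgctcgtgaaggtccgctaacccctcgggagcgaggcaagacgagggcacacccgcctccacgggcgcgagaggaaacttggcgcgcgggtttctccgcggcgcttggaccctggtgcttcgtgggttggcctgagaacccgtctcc
Elf3, chr1:135258423-135258722, minus strand: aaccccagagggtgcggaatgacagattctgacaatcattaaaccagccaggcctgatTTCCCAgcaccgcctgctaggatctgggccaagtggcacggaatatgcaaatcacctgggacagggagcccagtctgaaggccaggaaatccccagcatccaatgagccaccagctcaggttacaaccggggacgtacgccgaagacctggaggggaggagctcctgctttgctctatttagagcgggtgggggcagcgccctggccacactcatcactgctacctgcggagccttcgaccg
Klf4 held 4 GC boxes, and Grhl3, Ovol2 and Elf3 held 1 RBPJ core each. The Grhl3 window also held 1 GC box, which is not in capitals. The RBPJ core was found in 25.6% of all 32851 promoter windows, the GC box in 35.7% and the AP-1 site in 7.81%. The table held 46 windows for 31 of the 48 genes, and 13 of these windows held the RBPJ core, 22 the GC box and 3 the AP-1 site. A match is a run of letters and was not tested as a binding site. Of the other called genes with a window, Tfap2a held an RBPJ core in 1 of 2 windows and a GC box in both, and Dll1 an AP-1 site in 1 of 2.

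Zfp750, which acts below p63 in human terminal differentiation, had the highest level per kb of exon among the differentiation factors in every library, at 48.0, 34.8 and 34.0 CPM per kb in Tg46, Lgals7-/- and wild-type. In wild-type Pou2f3 was next to it at 33.7 CPM per kb, within counting error. Zfp750 held 52, 37 and 19 counts in Tg46, Lgals7-/- and wild-type, with ratios to wild-type of 1.39 (0.820 to 2.53) in Tg46 and 1.01 (0.573 to 1.88) in Lgals7-/-. Barx2, a homeobox factor of hair follicles, held 8, 13 and 0 counts in Tg46, Lgals7-/- and wild-type. At the floor of 3 counts for wild-type, it was 2.27-fold higher in Lgals7-/-, with an interval from 1.60 upward, and was called. In Tg46 it was 1.37-fold higher at this floor, with an interval from 0.880 upward, and was not called. Hopx, an atypical homeodomain protein of follicle stem cells, had the same order at 4, 9 and 0 counts and did not reach the filter. Markers of hair follicle summed to 913 CPM in Tg46, 4232 CPM in Lgals7-/- and 1308 CPM in wild-type over 11 detected genes, most of it from Tchh, and their part in these values was not tested.

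The other differentiation factors were not called. Pou2f3 and Pou3f1, POU factors of suprabasal keratinocytes, held 21, 19 and 18 counts and 14, 5 and 4 counts in Tg46, Lgals7-/- and wild-type. Prdm1, which marks terminal differentiation, held 13, 8 and 5. Cebpa, a factor of cell cycle exit, held 8, 4 and 2 and did not reach the filter. Over the 15 differentiation factors, 13 passed the filter, of which 3 were called higher, 1 lower and 9 neither in Tg46 over wild-type. In Lgals7-/- over wild-type these numbers were 1, 1 and 11, and in Tg46 over Lgals7-/- 3, 0 and 10. Over all genes 13.7%, 13.3% and 8.43% were called higher and 13.9%, 13.7% and 7.73% lower. The median log2 ratios of the 13 were 0.94, -0.30 and 0.46, against 0.11, 0.10 and -0.03 over all genes. Several of the 13, among them Klf4, Grhl3, Ovol2 and Elf3, passed the filter through Tg46 alone, which favours high ratios and calls there. The medians of the 13 were not recomputed under other settings. Summed keratinocyte markers were also highest in Tg46 (2647 CPM, against 2041 in Lgals7-/- and 1007 in wild-type), and their part in the differentiation factor values was not tested. Of these markers, Itga6 was highest in wild-type (110, 72.9 and 174 CPM in Tg46, Lgals7-/- and wild-type). Krt16 was level in Tg46 and Lgals7-/- (149 and 152 CPM, against 52.1 in wild-type), and the others were highest in Tg46.

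Trp63, Tfap2a, Tfap2c, Klf5 and Trp53 were grouped here under progenitor identity, although their roles need not be limited to it. Trp63, which encodes p63, had similar counts in all libraries, at 21 in Tg46, 18 in Lgals7-/- and 17 in wild-type. In CPM these are 62.7 in Tg46 and 54.7 in Lgals7-/- against 98.4 in wild-type, and the ratios to wild-type were 0.633 (0.320 to 1.29) and 0.555 (0.270 to 1.15), neither of them called. Tfap2a, the AP-2 alpha gene, held 42, 29 and 9 counts in Tg46, Lgals7-/- and wild-type, a ratio of 2.31 (1.15 to 5.62) in Tg46 over wild-type, called higher. The Lgals7-/- library lay between the others at 1.63-fold over wild-type (0.779 to 4.06). Exons of Gm26688, Gm47061 and Gm47067 lie across Tfap2a. Tfap2c held 7, 6 and 0 counts and Klf5, a factor of proliferating keratinocytes, 8, 4 and 3, and neither reached the filter. Trp53, the p53 tumour suppressor gene, held 14, 6 and 6 counts, with a ratio of Tg46 to Lgals7-/- of 2.19 (0.827 to 7.28).

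**Figure D2:**
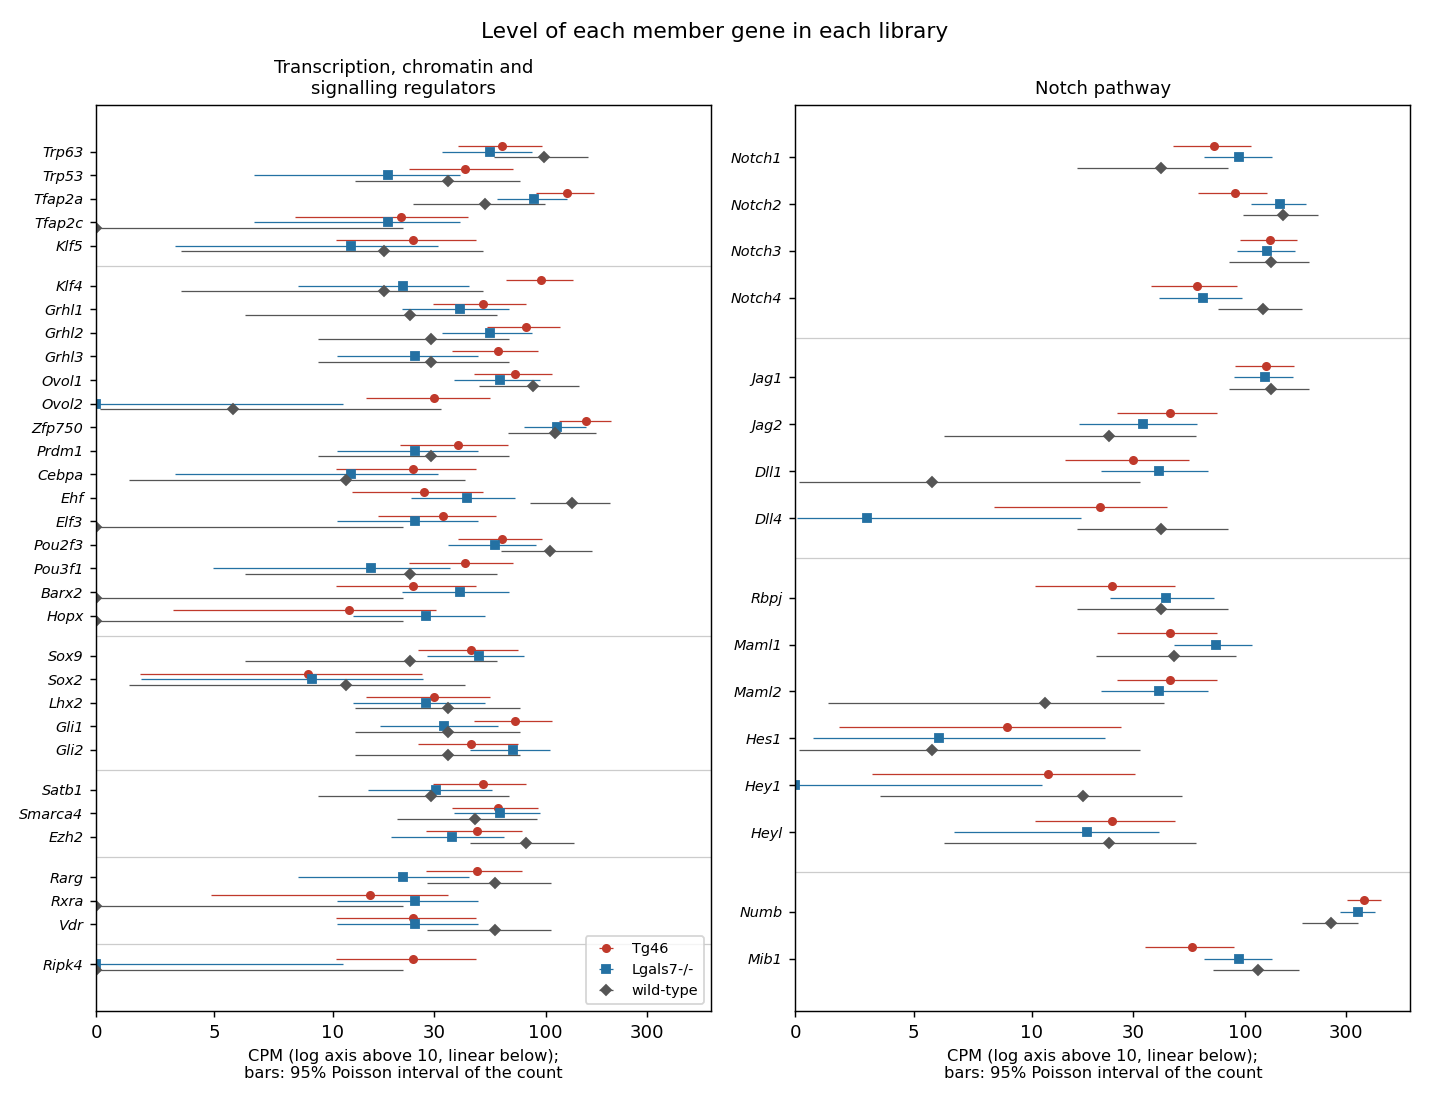
Level of each of the 48 genes in CPM, on a log axis above 10 CPM and a linear one below, in Tg46 (red circles), Lgals7-/- (blue squares) and wild-type (grey diamonds), with exact 95% Poisson intervals of the counts as bars. The Tg46 point of Klf4, at 95.5 CPM, and the wild-type point of Ehf, at 133 CPM, lie apart from the other libraries, while those of Notch3 and Jag1 coincide.

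Of the follicle and hedgehog factors, Gli1, a transcription factor and target of hedgehog signalling, held 24 counts in Tg46, 11 in Lgals7-/- and 6 in wild-type. It was called higher in Tg46 than in Lgals7-/-, at 2.09-fold (1.01 to 4.85), with exons of Arhgap9 and Gm47200 across it, and its ratio to wild-type was 1.94 (0.821 to 6.17). Gli2 held 15, 23 and 6 counts, with its highest level in Lgals7-/-, and was not called. Sox9, a factor of follicle stem cells, held 15, 16 and 4 counts, with a ratio of Lgals7-/- to wild-type of 1.92 (0.677 to 8.63). Lhx2 held 10, 9 and 6. Sox2 held 3, 3 and 2, at or under the floor of 3 counts in every library.

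The chromatin regulators were not called in any comparison. Satb1, a genome organiser, held 17, 10 and 5 counts in Tg46, Lgals7-/- and wild-type. Smarca4, the BRG1 ATPase, held 20, 20 and 8. Ezh2, the Polycomb methyltransferase, held 16, 12 and 14, with a ratio of Lgals7-/- to wild-type of 0.452 (0.190 to 1.05). Of the nuclear receptors, Rarg held 16, 7 and 10 counts, Vdr, the vitamin D receptor, 8, 8 and 10, and Rxra 5, 8 and 0. Rarg and Vdr were not called, and Rxra did not reach the filter. Ripk4, a kinase of epidermal differentiation, held 8 counts in Tg46 and 0 in both Lgals7-/- and wild-type, and it did not reach the filter. At the floor of 3 counts, the ratios of Tg46 were 2.62 to Lgals7-/- and 1.37 to wild-type. Their intervals ran from 1.68 and from 0.880 upward, so that the interval to wild-type included 1.

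The Notch receptors differed from each other. Notch1, the main receptor of epidermal tumour suppression in mice, held 24 counts in Tg46, 31 in Lgals7-/- and 7 in wild-type. In Lgals7-/- over wild-type it was called higher at 2.20-fold, with an interval of 1.004 to 6.25 whose lower end lay next to 1, and it was 1.68-fold (0.739 to 4.86) in Tg46 over wild-type. Exons of 0610009E02Rik and Gm13568 lie across Notch1. Notch4, best known in endothelium, held 20, 21 and 21 counts, which with the smaller wild-type library are 59.7, 63.8 and 122 CPM. It was 2.03-fold lower in Tg46 than in wild-type (1.05 to 3.96), and 1.91-fold lower in Lgals7-/- with an interval of 0.990 to 3.67, which was not called.

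The remaining receptors were not called. Notch3, a receptor of mural cells and suprabasal keratinocytes, held 44, 42 and 23 counts in Tg46, Lgals7-/- and wild-type, and its ratios to wild-type were 0.976 (0.583 to 1.71) in Tg46 and 0.949 (0.563 to 1.67) in Lgals7-/-. Notch2 held 30, 48 and 26 counts, with an interval of Tg46 over Lgals7-/- of 0.376 to 0.989 around a ratio of 0.618, under 2-fold. By the interval alone it would be the 1 gene of the 37 called lower there, against 8.71% of all genes. Per kb of exon, Notch3 was the highest receptor in each library, at 16.2, 15.8 and 16.5 CPM per kb in Tg46, Lgals7-/- and wild-type, and Notch1 the lowest at 5.03, 6.62 and 2.85. In wild-type Notch4 and Notch2 lay close to Notch3, at 15.1 and 13.96 CPM per kb. Summed endothelial markers were 445 CPM in Tg46, 416 CPM in Lgals7-/- and 509 CPM in wild-type, with 10, 10 and 9 of 10 detected and Cldn5 at 0 in wild-type, and their part in the Notch4 value was not tested.

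The RefSeq windows of the called receptors are shown in the same way, with GGGCGG or its reverse complement in capitals for Notch1 and TGANTCA for Notch4.
Notch1, chr2:26503773-26504072, minus strand: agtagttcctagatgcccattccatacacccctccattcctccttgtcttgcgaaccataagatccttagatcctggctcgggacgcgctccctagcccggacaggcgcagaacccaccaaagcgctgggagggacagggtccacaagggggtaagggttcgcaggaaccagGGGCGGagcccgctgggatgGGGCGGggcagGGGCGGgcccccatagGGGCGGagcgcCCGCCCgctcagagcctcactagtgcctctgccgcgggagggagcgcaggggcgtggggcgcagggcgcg
Notch4, chr17:34564045-34564344, plus strand: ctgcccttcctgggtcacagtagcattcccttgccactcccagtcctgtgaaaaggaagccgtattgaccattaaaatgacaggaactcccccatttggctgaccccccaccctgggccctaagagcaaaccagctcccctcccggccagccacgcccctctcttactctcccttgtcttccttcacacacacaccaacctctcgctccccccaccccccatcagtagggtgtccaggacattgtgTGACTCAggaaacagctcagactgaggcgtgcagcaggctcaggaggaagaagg
Notch1 held 5 GC boxes and neither of the other motifs, and Notch4 held 1 AP-1 site and neither of the others.

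Among the ligands, Jag1 held 42 counts in Tg46, 41 in Lgals7-/- and 23 in wild-type, with ratios to wild-type of 0.932 (0.553 to 1.64) and 0.927 (0.548 to 1.63), and it was the most abundant ligand per kb of exon in every library. The intervals of Jag1 and Notch3 bound any difference from wild-type to under 2-fold in either direction, as far as counting error goes. Dll1 held 10, 13 and 1 counts in Tg46, Lgals7-/- and wild-type, a ratio of 4.72 (1.02 to 290) in Lgals7-/- over wild-type, called higher, with an exon across it from A930024N18Rik. Jag2 held 15, 11 and 4 and was not called. Dll4, a ligand of endothelial tip cells, held 7, 1 and 7 counts and did not reach the filter, and its ratio of Lgals7-/- to wild-type was 0.105 (0.00166 to 0.584).

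The nuclear effectors were not called. Rbpj held 8, 14 and 7 counts in Tg46, Lgals7-/- and wild-type, Maml1 15, 24 and 8, and Maml2 15, 13 and 2. The Maml2 ratios to wild-type were 3.20 (0.899 to 34.8) in Tg46 and 2.83 (0.772 to 31.1) in Lgals7-/-. The target genes through which Notch activity is commonly read were near the floor. Hes1 held 3, 2 and 1 counts, Hey1 4, 0 and 3, and Heyl 8, 6 and 4 in Tg46, Lgals7-/- and wild-type. None of the 3 reached the filter, and a difference in them was not detectable at this depth.

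Numb, an adaptor that restrains Notch, had the highest level per kb of exon of the 48 genes in each library, at 92.9, 86.9 and 65.0 CPM per kb in Tg46, Lgals7-/- and wild-type. It held 122, 112 and 44 counts, or 364, 340 and 255 CPM. Its ratios to wild-type were 1.42 (1.01 to 2.07) and 1.33 (0.935 to 1.94), under 2-fold, and an exon of Gm46367 lies across it. Mib1, a ubiquitin ligase that activates ligands by endocytosis, held 19, 31 and 20 counts and was 2.04-fold lower in Tg46 than in wild-type (1.03 to 4.04). Neither Mib1 nor Notch4 was called with DESeq2 size factors or with TMM factors over all genes. Over the Notch pathway, 12 of 16 genes passed the filter. Of these 0 were called higher and 2 lower in Tg46 over wild-type, 2 higher and 0 lower in Lgals7-/- over wild-type, and 0 in either direction in Tg46 over Lgals7-/-. The shares over all genes were 13.7% higher and 13.9% lower in Tg46 over wild-type, 13.3% and 13.7% in Lgals7-/- over wild-type and 8.43% and 7.73% in Tg46 over Lgals7-/-. With 12 genes, a count of 2 is near these shares. Their median log2 ratios were -0.06, 0.21 and -0.24, against 0.11, 0.10 and -0.03 over all genes.

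Other genes of the Notch pathway were read from a list of 53, of which 39 passed the filter. In Tg46 over wild-type, 8 were called higher (20.5%), 3 lower and 28 neither. In Lgals7-/- over wild-type 5 were called higher (12.8%), 3 lower and 31 neither, and in Tg46 over Lgals7-/- 3 were called higher (7.69%), 2 lower and 34 neither. Of all genes, 13.7%, 13.3% and 8.43% were called higher and 13.9%, 13.7% and 7.73% lower in these comparisons. The share called higher was above that of all genes in Tg46 over wild-type alone. With 39 genes, single libraries and a list chosen with earlier results known, that excess of few genes is not read as a trait of the list. The medians were 0.24, 0.04 and 0.11, against 0.11, 0.10 and -0.03 over all genes. Crebbp, a coactivator acetyltransferase, held 73, 73 and 9 counts in Tg46, Lgals7-/- and wild-type and was 3.99-fold (2.09 to 9.51) and 4.06-fold (2.12 to 9.68) higher than wild-type. The Deltex genes Dtx2 and Dtx3, which encode Notch-binding ubiquitin ligases, held 10, 14 and 0 and 14, 10 and 0 counts. At the floor of 3 counts for wild-type, Dtx2 was 1.72-fold higher in Tg46 and 2.45-fold in Lgals7-/-. The intervals of Dtx2 ran from 1.16 and 1.74 upward. Dtx3 was 2.41-fold and 1.75-fold higher in these libraries, with intervals from 1.71 and 1.18 upward. Itch, a ubiquitin ligase that targets Notch, held 12 counts in Tg46 against 27 in Lgals7-/- and 28 in wild-type, and was 4.42-fold lower than wild-type (2.23 to 9.77) and 2.24-fold lower than Lgals7-/- (1.12 to 4.96). Dlk1, a non-canonical ligand, was 6.12-fold higher in Lgals7-/- than in wild-type (1.40 to 373), at 17 counts against 1, and held 12 in Tg46. In Tg46 over Lgals7-/-, Dvl2 was 3.20-fold higher (2.43 to 4.30), with an exon of Acadvl across it, Snw1 2.69-fold higher (1.49 to 5.34), with Slirp across it, and Hdac1 2.57-fold lower (1.24 to 6.15).

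**Figure D3:**
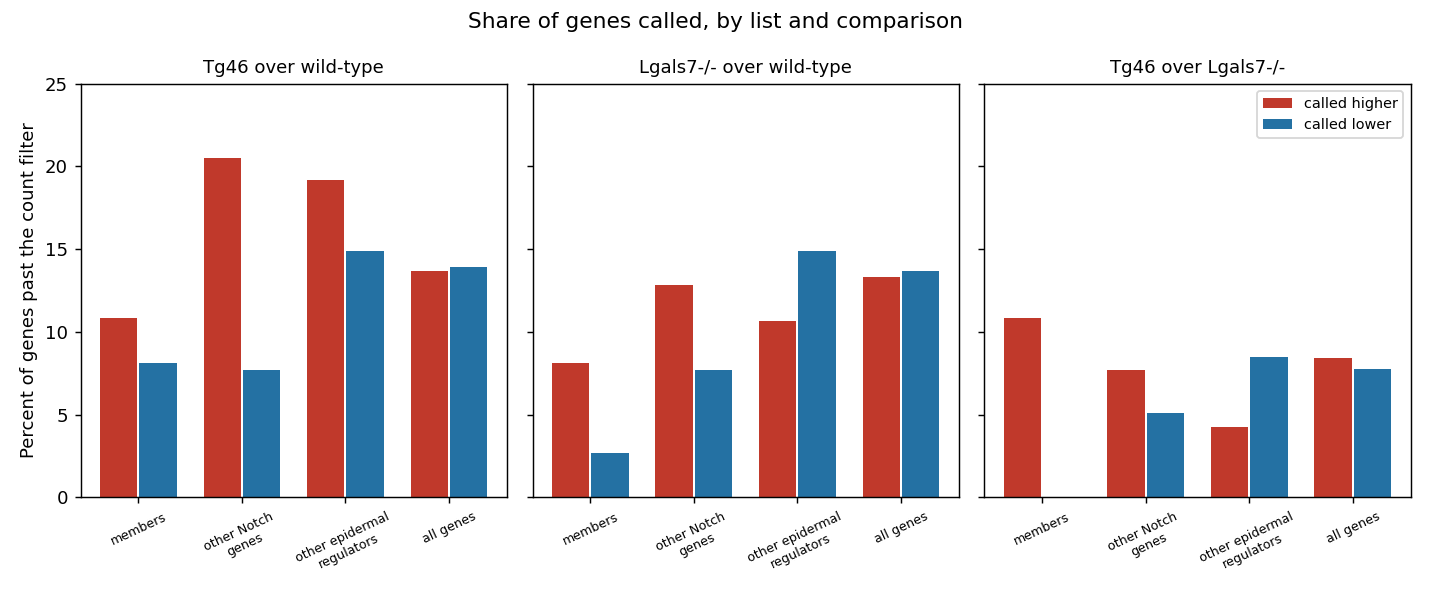
Percent of genes past the count filter that were called higher (red) or lower (blue) in Tg46 over wild-type, Lgals7-/- over wild-type and Tg46 over Lgals7-/-, for the 37 genes of the list, the 39 other Notch genes, the 47 other epidermal regulators and all 12940 genes. The bars of the 37 genes lie below those of all genes, except those called higher in Tg46 over Lgals7-/-, at 10.8% against 8.43%.

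Levels were also set against genes not known for expression in skin. The 1487 chemosensory receptor genes with a gene model had a pooled level of 2.31 CPM per kb of exon in Tg46, 2.51 in Lgals7-/- and 3.21 in wild-type. Their 95th percentile was 10.3, 13.2 and 19.9 CPM per kb. Of the 48 genes, 17 lay above it in Tg46, 11 in Lgals7-/- and 6 in wild-type, which compares with 29.8%, 21.8% and 13.8% of all annotated genes. Numb, Zfp750, Pou2f3, Ovol1 and Jag1 were above it in all 3 libraries, and Klf4 in Tg46 only, at 31.3 CPM per kb against 6.97 in Lgals7-/- and 5.69 in wild-type. Ehf was above it in wild-type only, at 23.9 CPM per kb, against 4.82 in Tg46 and 7.63 in Lgals7-/-. The median level of the 48 genes was 7.67, 6.57 and 5.66 CPM per kb, against 6.60, 6.78 and 5.69 for all annotated genes. Receptor genes had a median of 3048 bases of exon and the 48 genes 4949, so 1 read weighs more in a receptor gene, most of all in wild-type, and whether the receptor counts are background was not tested.

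**Figure D4:**
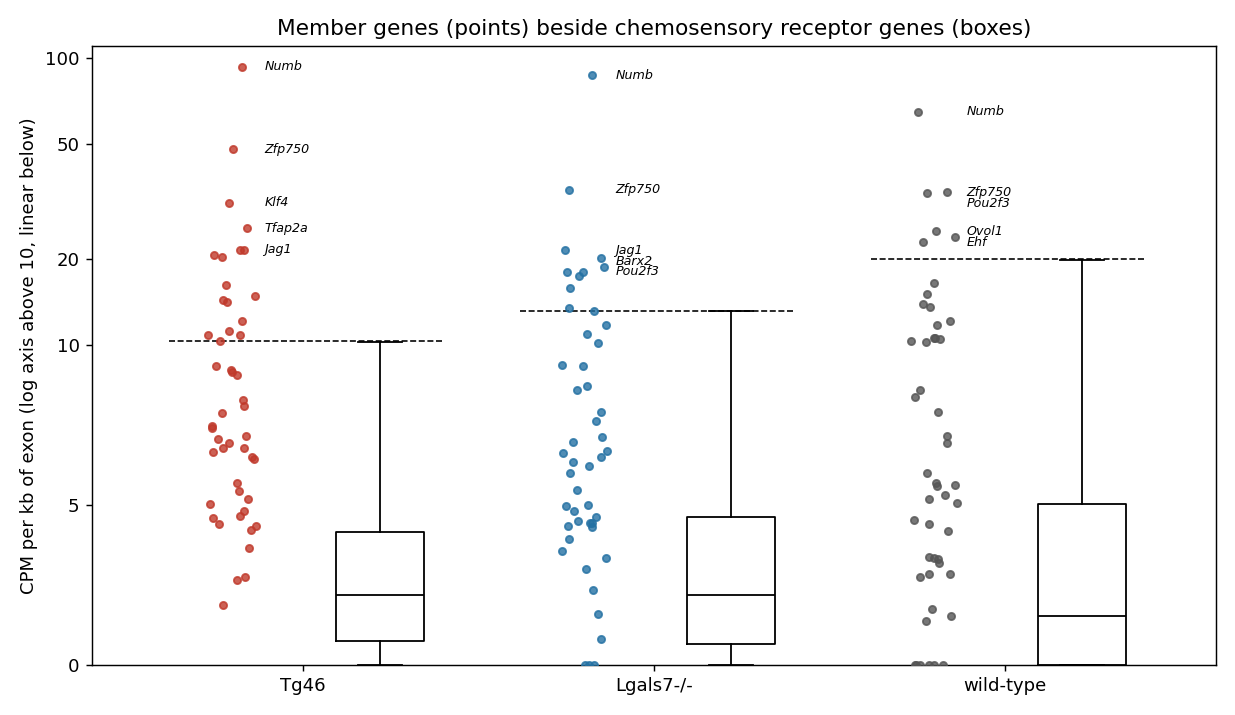
Levels in CPM per kb of exon (log axis above 10, linear below) of the 48 genes, as points with the highest 5 named, beside boxes of the 1487 chemosensory receptor genes in Tg46, Lgals7-/- and wild-type. Boxes span the quartiles, whiskers the 5th to the 95th percentile, and dashed lines mark the 95th percentile at 10.3, 13.2 and 19.9 CPM per kb, above which lie 17, 11 and 6 of the 48 genes.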

How the data were processed

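The deposited file holds raw read counts per Entrez identifier for 3 libraries, made by the authors on build mm10, per the submitters' processing notes. RNA was extracted with TRIzol and RNeasy columns and sequenced from an Illumina kit, per the labels' protocols. The aligner, counter and use of strand are not stated in the sources used here. Scaling used TMM factors of edgeR 4.0.16 in R 4.3.3 (0.945 in Tg46, 1.05 in Lgals7-/- and 1.00 in wild-type), computed over the genes that reached 10 counts in any library. A quasi-likelihood test needs replicates, which single libraries lack, so there are no p-values. Symbols came from RefSeq, and exon lengths and overlaps from GENCODE models on GRCm38 (23711 identifiers). Every called gene, Notch receptor, ligand and HES or HEY gene is named, with up to 4 called genes per wider list and comparison. The genes and lists were chosen with earlier results of these data known. The alternatives tried were size factors of DESeq2 1.42.0, scaling by total counts, other filters, 5 added counts, either condition of the call rule alone, thinning, and genes with no opposite-strand exon; TMM factors over all genes were added after seeing the data. Other steps ran in Python 3.11.15 with pandas 2.3.3, scipy 1.17.1 and numpy 2.4.6.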

Additional observations from a re-analysis of the deposited data

How the results depend on the processing

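No paired analysis was possible because there was 1 library for each genotype. The calls of Klf4 and Ehf held under every scaling, with 5 counts added and in libraries thinned to the smallest total. The other 11 called genes lost a call under at least 1 of these. Of 75 recomputed ratios 48 kept the call, 27 lost it in the same direction and 0 reversed. Thinning, which leaves fewer counts and 22 genes past the filter, ended 11 of 15 calls. It gave 1 gene higher and 1 lower in Tg46 over wild-type, 0 higher and 3 lower in Lgals7-/- over wild-type and 1 higher in Tg46 over Lgals7-/-, and of the 3 lower, Notch4 and Trp63 were new calls beside Ehf. Adding 5 counts left 1, 0 and 2 higher in these comparisons. DESeq2 size factors and TMM over all genes each left 1 lower in Tg46 over wild-type, the calls of Notch4 and Mib1 ending. Total counts left 2 higher in Tg46 over Lgals7-/-, where the split of all genes became 5.85% higher and 10.6% lower. Genes with no opposite-strand exon numbered 23, with 1, 1 and 2 called higher. A filter of 20 counts left 1 higher in Lgals7-/- over wild-type, and no filter gave 2 lower there. The 2-fold rule alone gave 9, 5 and 7 higher and 5 lower in Lgals7-/- over wild-type, and the interval alone gave 1 lower (Notch2) in Tg46 over Lgals7-/-.

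The median in Tg46 over wild-type was 0.13 with the filter of 20 counts, 0.20 with no opposite-strand exon and 0.49 with TMM over all genes, and reversed to -0.012 with 5 counts added and -0.15 with thinning. In Lgals7-/- over wild-type it was -0.27 with 5 counts added and reversed to 0.019 with DESeq2, 0.010 with total counts and 0.084 with TMM over all genes. In Tg46 over Lgals7-/- it was 0.018 with total counts and 0.069 with the filter of 20. A change of scaling moves every log2 ratio of a comparison by the same amount, so the median of all genes moved with that of the list. TMM over all genes moved it by 0.15 and 0.14 in the comparisons with wild-type. Total counts moved it by -0.16 in Tg46 over Lgals7-/-. The causes of the other changes were not tested. Above the 99th percentile of receptor genes lay 4, 2 and 1 of the 48 genes in Tg46, Lgals7-/- and wild-type, and above the 90th 10 in wild-type.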

Other observations

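Beyond the genes described so far, 64 other transcription and chromatin regulators of epidermis were read from a list, and 47 passed the filter. In Tg46 over wild-type 9 were called higher (19.1%) and 7 lower (14.9%), 31 had no call, and the median log2 ratio was -0.35, against 0.11 over all genes. In Lgals7-/- over wild-type 5 were called higher, 7 lower and 35 neither (median -0.04), and in Tg46 over Lgals7-/- 2 higher, 4 lower and 41 neither (median -0.03). Of all genes, 13.7%, 13.3% and 8.43% were called higher and 13.9%, 13.7% and 7.73% lower in these comparisons. Pparg, a nuclear receptor of lipid metabolism, held 2 counts in Tg46 and 2 in Lgals7-/- against 18 in wild-type, and was 14.4-fold lower in Tg46 (4.18 to 155) and 14.1-fold lower in Lgals7-/- (4.11 to 152). Snai2, the Slug repressor of epithelial genes, held 3 and 4 counts against 17 in wild-type, and was 9.70-fold lower in Tg46 (3.18 to 58.5) and 7.41-fold lower in Lgals7-/- (2.64 to 33.1). Msx2, a homeobox factor of skin appendages, was 5.46-fold lower in Lgals7-/- than in wild-type (2.34 to 15.9), with 7 counts against 21. In Tg46 Msx2 held 9 counts, also under wild-type. These genes have no annotated exon across them, and the calls share the wild-type library.

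Among those called higher, Cebpb, a factor of keratinocyte differentiation, held 23 counts in Tg46, 8 in Lgals7-/- and 0 in wild-type. At the floor of 3 counts for wild-type, it was 3.95-fold higher in Tg46, with an interval from 2.96 upward. An exon of Tmem189 lies across it. Rara, a retinoic acid receptor, was 8.42-fold higher in Tg46 than in wild-type (2.02 to 509), with 24 counts against 1, and 12 in Lgals7-/-. Nfix was 6.82-fold higher in Lgals7-/- than in wild-type (2.53 to 39.6), with exons of G430095P16Rik and Lyl1 across it. It held 56 counts in Tg46, 45 in Lgals7-/- and 3 in wild-type, so Tg46 also stood above wild-type. In Tg46 over Lgals7-/-, Sfn, the 14-3-3 sigma protein of differentiating keratinocytes, was 5.03-fold higher (2.45 to 13.0), with 43 counts in Tg46, 8 in Lgals7-/- and 5 in wild-type. Called lower there were Kdm6a, a histone demethylase, at 3.87-fold (1.74 to 11.04), Dlx3, a homeobox factor of follicle and epidermis, at 3.51-fold (1.22 to 15.8), and Tcf7l1, a Wnt pathway repressor of follicle stem cells, at 2.78-fold (1.18 to 8.14), with Gm15401 across it. Dlx3 held 4 counts in Tg46 and 15 in Lgals7-/-, against 1 in wild-type. Summed hair follicle markers were likewise highest in Lgals7-/-, at 4232 CPM against 913 CPM in Tg46 and 1308 CPM in wild-type. Most of this sum came from Tchh, and several other markers, such as Shh and Lgr5, were not highest in Lgals7-/-. The part of the follicle in these values was not tested.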
